A study of Mus musculus with 12 samples.

Results

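The 10 genes described here are 6 matrix metalloproteinases (Mmp2, Mmp14, Mmp15, Mmp16, Mmp17 and Mmp24), 3 tissue inhibitors of metalloproteinases (Timp2, Timp3 and Timp4) and Reck, out of 53465 genes counted. They were taken by symbol from a list of proteases and inhibitors and were chosen by their levels in these same libraries, with the differences between the cell fractions already known, so their levels and fold changes are a description and carry no test. All 10 were found in the count files and all 10 passed the filter on low counts.

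The study sorted glial cells from the spinal cord of C57BL/6 mice at postnatal day 7, using only its brachial and thoracic parts. Every mouse carried the same pair of transgenes, Aldh1L1-GFP, which labels astrocytes, and Olig2-tdTomato, which labels cells that express the oligodendrocyte lineage factor Olig2. Cells were freed with papain and separated by flow cytometry into an eGFP/tdTomato fraction with both colours, an eGFP fraction and a tdTomato fraction, with 4 libraries each, numbered 1, 2, 3 and 5. Libraries were made from total RNA for a BGISEQ-500 sequencer, and the labels do not say how many mice went into each. Unsorted tissue and mice without the transgenes were not analysed here, so each fraction was compared only with the others.

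The libraries held 23.9 to 30.3 (units of 1e6) gene counts in the eGFP/tdTomato fraction, 12.6 to 27.9 in the eGFP fraction and 25.5 to 36.5 in the tdTomato fraction. The eGFP library 1 stood apart, with 57.1% of its reads outside annotated genes, against at most 42.5% in the other 11. The reporters' own genes followed the labels: Aldh1l1 averaged 722 ± 170 CPM in eGFP/tdTomato cells, 406 ± 207 CPM in eGFP cells and 3.69 ± 1.83 CPM in tdTomato cells, and Olig2 averaged 74.4 ± 30.0, 5.76 ± 3.06 and 258 ± 80.1 CPM in the same order (SD, n = 4 each). CPM is the count per 1e6 gene counts, scaled by TMM factors that correct for library composition. The summed level of 12 pan-astrocyte genes was 45590 to 53620 CPM in eGFP/tdTomato libraries, 33890 to 50030 CPM in eGFP libraries and 504 to 660 CPM in tdTomato libraries. The sum of 12 myelinating oligodendrocyte genes was 1679 to 3388 CPM in eGFP/tdTomato libraries, 462 to 1363 CPM in eGFP libraries and 115000 to 169800 CPM in tdTomato libraries. Microglia and macrophage genes summed to 82.7 to 104 CPM in eGFP/tdTomato libraries, 128 to 1120 CPM in eGFP libraries and 32.5 to 61.4 CPM in tdTomato libraries, and 10 neuron genes summed to a mean of 51.9, 72.1 and 86.8 CPM in the same order. In such bulk libraries, fewer cells of a type and less RNA per cell cannot be told apart.

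Matrix metalloproteinases are zinc enzymes that cut extracellular matrix and cell-surface proteins. Most are secreted, whereas the membrane-type enzymes stay on the cell that makes them, held by a transmembrane segment (MMP14, MMP15, MMP16 and MMP24) or by a lipid anchor (MMP17). The TIMP proteins block the active site, and MMP14 with TIMP2 forms the surface complex that captures and activates the secreted enzyme MMP2, while RECK is a lipid-anchored inhibitor on the cell surface. In the nervous system these proteins are known for shaping the perineuronal matrix, releasing surface receptors and letting cells move through tissue.

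The part of each coding sequence that defines the family is shown first, so that the members can be set side by side before their levels. The 33 bases below encode the zinc-binding site in GENCODE M21 transcripts, and capitals mark the codons of the 3 zinc-binding histidines, the catalytic glutamate and the conserved glycine.
Mmp2: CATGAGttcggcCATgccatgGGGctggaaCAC
Mmp14: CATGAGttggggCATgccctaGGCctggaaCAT
Mmp15: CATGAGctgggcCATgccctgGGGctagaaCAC
Mmp16: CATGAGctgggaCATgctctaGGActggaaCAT
Mmp17: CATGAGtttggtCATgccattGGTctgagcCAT
Mmp24: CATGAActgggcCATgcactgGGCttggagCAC
Mmp14 and Mmp16 were identical at 29 of the 33 bases, as were Mmp2 and Mmp15, whereas Mmp17 and Mmp24 shared 20.

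The 39 bases below encode the start of each mature TIMP, the wedge that enters the protease's active site, and capitals mark the codons of its 3 cysteines.
Timp2: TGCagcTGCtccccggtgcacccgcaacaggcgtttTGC
Timp3: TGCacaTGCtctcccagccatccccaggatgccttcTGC
Timp4: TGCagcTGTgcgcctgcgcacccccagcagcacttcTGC
Timp2 and Timp4 were identical at 28 of the 39 bases, and Timp3 matched each of them at 25.

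Across the membrane-type enzymes, different members led in different fractions. Mmp14 was carried by the cells with the astrocyte reporter and was near absent from tdTomato cells, whereas Mmp15 and Mmp16 were highest in tdTomato cells. Among the inhibitors, Timp3 and Timp4 were highest in eGFP/tdTomato cells, and Timp2 was highest in tdTomato cells. Mmp2, the secreted enzyme that MMP14 activates, was lowest in eGFP/tdTomato cells, a fraction in which Mmp14 was high.

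**Figure D1:**
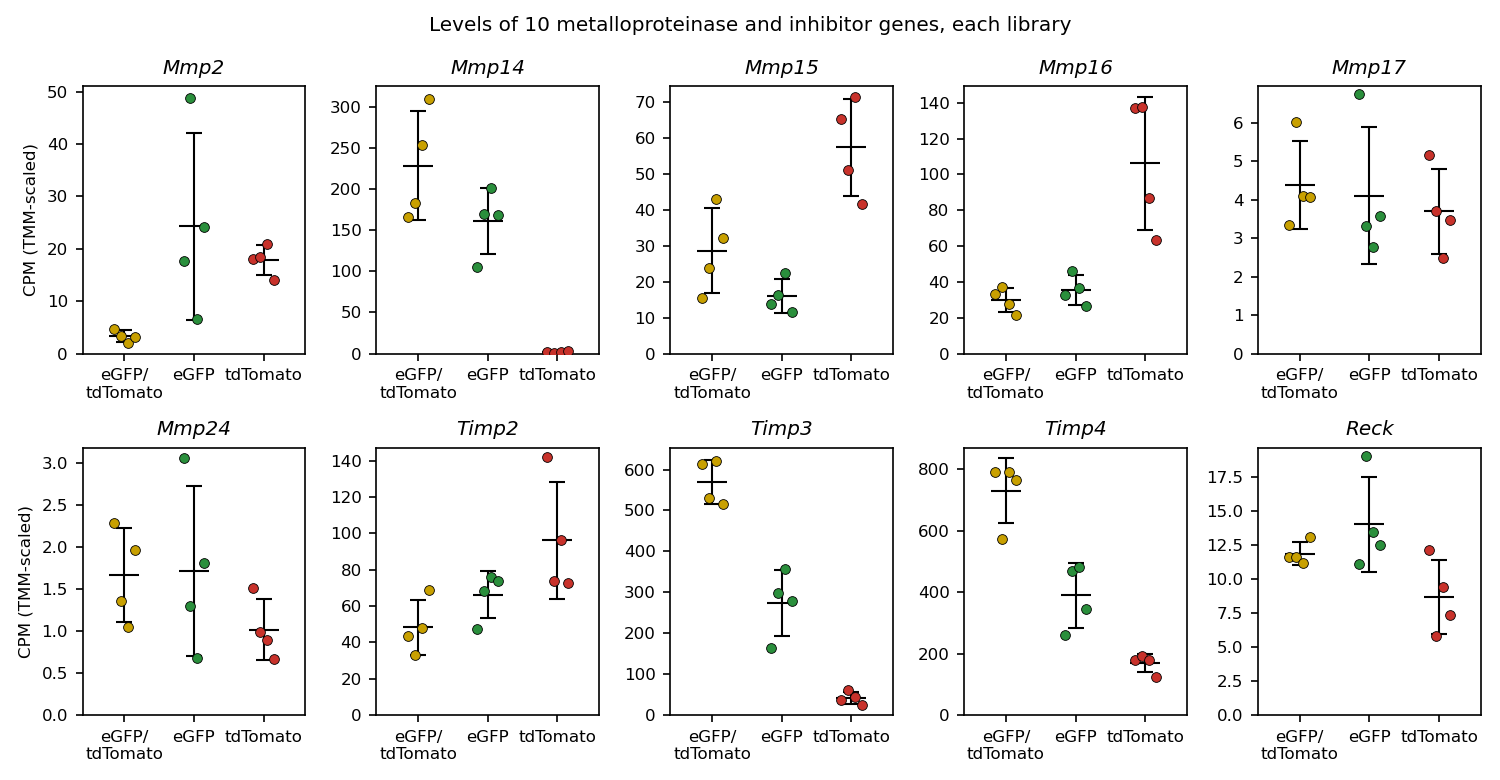
Level of each gene (CPM, linear axis) in the 12 libraries, by fraction; points are libraries, and bars are the mean ± SD of 4 libraries. Mmp14 stays at or under 2.73 CPM in tdTomato libraries and at or over 105 CPM in all others, while Mmp2 stays at or under 4.74 CPM in eGFP/tdTomato libraries.

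Mmp14 (ENSMUSG00000000957, GRCm38 chr14:54431612-54445364, plus strand) encodes the membrane collagenase that also activates MMP2. It was at 166, 183, 254 and 310 CPM in eGFP/tdTomato libraries 1, 2, 3 and 5, at 105, 169, 202 and 168 CPM in the eGFP libraries, and at 2.23, 0.69, 1.34 and 2.73 CPM in the tdTomato libraries. The fractions with the astrocyte reporter overlapped each other, and neither overlapped tdTomato, where the gene had only 23 to 74 counts per library. The log2 fold change of Mmp14 was 7.04 ± 0.42 (SE) for eGFP/tdTomato against tdTomato, a 132-fold difference, and 6.54 ± 0.41 for eGFP against tdTomato, a 93.0-fold difference. For eGFP/tdTomato against eGFP it was 0.51 ± 0.32, or 0.29 without eGFP library 1, and the libraries overlapped. The tdTomato mean of Mmp14 was 0.765% of the eGFP/tdTomato mean, beside 1.24% for the summed pan-astrocyte genes. In tdTomato libraries that sum averaged 605 CPM, of which S100b held 297 CPM. S100b averaged less in the other fractions, at 259 CPM in eGFP/tdTomato and 154 CPM in eGFP libraries. The 1.24% and the tdTomato ratios to this sum therefore do not measure astrocyte RNA alone. The part of remaining astrocyte RNA in the tdTomato trace of Mmp14 was not tested. Per 1000 CPM of pan-astrocyte genes, Mmp14 stood at 3.53 to 6.80 CPM in eGFP/tdTomato libraries, 3.09 to 4.03 CPM in eGFP libraries and 1.15 to 5.42 CPM in tdTomato libraries, which overlap.

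Mmp15 (ENSMUSG00000031790, GRCm38 chr8:95352268-95375080, plus strand) encodes another transmembrane enzyme. It was at 15.3, 23.8, 43.0 and 32.2 CPM in eGFP/tdTomato libraries 1, 2, 3 and 5, at 13.9, 16.4, 22.4 and 11.4 CPM in eGFP libraries, and at 65.3, 51.0, 71.4 and 41.7 CPM in tdTomato libraries. All tdTomato libraries lay above all eGFP libraries, while eGFP/tdTomato lay between the other fractions and overlapped both. Its log2 fold change was -1.01 ± 0.30 (SE) for eGFP/tdTomato against tdTomato, -1.84 ± 0.30 for eGFP against tdTomato and 0.83 ± 0.30 for eGFP/tdTomato against eGFP. The first of these passed the call threshold in the fit of all libraries and did not when eGFP/tdTomato library 1 or 2 or tdTomato library 1 or 3 was left out, with the log2 fold change between -1.56 and -0.75 over all alternatives.

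Mmp16 (ENSMUSG00000028226, GRCm38 chr4:17852893-18119145, plus strand) encodes a transmembrane enzyme that can also activate MMP2. It was at 33.1, 37.1, 27.8 and 21.4 CPM in eGFP/tdTomato libraries 1, 2, 3 and 5, at 32.6, 46.0, 36.7 and 26.5 CPM in eGFP libraries, and at 137, 138, 86.8 and 63.5 CPM in tdTomato libraries. Every tdTomato library lay above every other library, and the other fractions overlapped. For Mmp16 the log2 fold change was -1.83 ± 0.27 (SE) for eGFP/tdTomato against tdTomato, -1.58 ± 0.27 for eGFP against tdTomato and -0.25 ± 0.26 for eGFP/tdTomato against eGFP. The eGFP/tdTomato mean was 28.1% of the tdTomato mean for Mmp16 and 49.8% for Mmp15, beside 1.86% for the summed myelinating oligodendrocyte genes. The sum of 9 oligodendrocyte progenitor genes averaged 2851 CPM in eGFP/tdTomato and 3897 CPM in tdTomato libraries, which overlapped. Ptprz1 held 1965 and 529 CPM of these means. The other genes of that list averaged less in eGFP/tdTomato than in tdTomato. Olig1 was at 661 against 1039 CPM and Sox10 at 13.9 against 537 CPM.

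Mmp24 (ENSMUSG00000027612, GRCm38 chr2:155775342-155818366, plus strand) encodes a transmembrane enzyme studied mostly in neurons, and it was barely counted, with 18 to 67 counts per library. Its level was 2.28, 1.36, 1.05 and 1.96 CPM in eGFP/tdTomato libraries 1, 2, 3 and 5, 3.07, 1.29, 0.68 and 1.81 CPM in eGFP libraries, and 1.51, 0.99, 0.89 and 0.66 CPM in tdTomato libraries. All fractions overlapped. Per kilobase of exon, Mmp24 stood at 0.225 to 0.488 CPM in eGFP/tdTomato libraries, 0.145 to 0.655 CPM in eGFP libraries and 0.142 to 0.323 CPM in tdTomato libraries. Olfactory and vomeronasal receptor genes, which glia are not known to use, stood at 0.0484 to 0.269, 0.0612 to 0.481 and 0.00776 to 0.125 CPM per kilobase in the same order. Mmp24 lay above that level in each library, and the ranges overlapped in eGFP/tdTomato and in eGFP. Of its exon bases, 13.6% also lie in BC029722 on the opposite strand, and reads there cannot be assigned to one gene because the strand mode of the counting is not given.

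Mmp17 (ENSMUSG00000029436, GRCm38 chr5:129584169-129611099, plus strand) encodes the lipid-anchored enzyme of the set. It was at 3.34, 6.02, 4.11 and 4.07 CPM in eGFP/tdTomato libraries 1, 2, 3 and 5, at 6.74, 3.33, 2.79 and 3.58 CPM in eGFP libraries, and at 5.17, 3.70, 2.49 and 3.47 CPM in tdTomato libraries. All fractions overlapped, and its fold changes were within 0.24 of 0 on the log2 scale with an SE of 0.35 each.

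Mmp2 (ENSMUSG00000031740, GRCm38 chr8:92827291-92853420, plus strand) encodes gelatinase A, the secreted enzyme that cuts gelatin and basement membrane collagen. It was at 4.74, 3.31, 1.92 and 3.22 CPM in eGFP/tdTomato libraries 1, 2, 3 and 5, at 17.7, 48.7, 6.51 and 24.2 CPM in eGFP libraries, and at 18.0, 18.5, 20.97 and 14.1 CPM in tdTomato libraries. Every eGFP/tdTomato library lay below every other library, while eGFP spread widely around the narrow tdTomato range. The log2 fold change of Mmp2 was -2.88 ± 0.47 (SE) for eGFP/tdTomato against eGFP, -2.44 ± 0.46 for eGFP/tdTomato against tdTomato and 0.44 ± 0.43 for eGFP against tdTomato. Without eGFP library 2 the last of these was -0.17, and the first was -2.27.

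Within the eGFP fraction, the fibroblast genes Dcn, Lum, Col1a1 and Col3a1 ran in the order of Mmp2. Other fibroblast genes and the mural cell genes did not. The summed level of 14 mural and fibroblast genes, Mmp2 not among them, was 904, 2161, 835 and 1321 CPM in eGFP libraries 1, 2, 3 and 5, the same order as that of Mmp2. Dcn, the fibroblast proteoglycan decorin, was at 216, 673, 67.3 and 277 CPM in those libraries, against 2.71 to 5.98 CPM in eGFP/tdTomato libraries and 0.56 to 2.69 CPM in tdTomato libraries. Lum, Col1a1 and Col3a1, also made by fibroblasts, ran in that order too. Col1a2 did not, at 324.9, 584.3, 540.8 and 453.5 CPM in eGFP libraries 1, 2, 3 and 5. Slc6a13 was at 10.87, 19.44, 4.065 and 10.83 CPM there, out of that order only by the small difference between libraries 1 and 5. The mural genes ran otherwise. Pdgfrb, a receptor of pericytes, was at 11.3, 13.8, 36.0 and 20.3 CPM in eGFP libraries 1, 2, 3 and 5. It was highest where Mmp2 was lowest, and Rgs5, Abcc9 and Acta2 were lowest in eGFP library 2, where Mmp2 was highest. Myl9 was at 23.18, 42.85, 39.52 and 32.03 CPM in those libraries, highest where Mmp2 was highest but otherwise in another order. The same sum was 392 to 599 CPM in eGFP/tdTomato libraries, of which Col1a2, a collagen chain, made up 314 to 520 CPM. It was 9.56 to 21.2 CPM in tdTomato libraries, with no gene of the list averaging 5 CPM or more, and there Mmp2 was at 14.1 to 20.97 CPM. None of the 14 genes averaged 0 in any fraction. The order of Mmp2 was not particular to fibroblast genes. The ependymal genes Tmem212, Dynlrb2 and Cfap126 also ran in it, and the others of 10 ependymal genes did not. Those 10 summed to 229, 485, 273 and 409 CPM in eGFP libraries 1, 2, 3 and 5. They summed to 24.3 to 38.2 CPM in eGFP/tdTomato libraries. The parts of fibroblast and ependymal RNA in the eGFP level of Mmp2 were not tested.

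**Figure D2:**
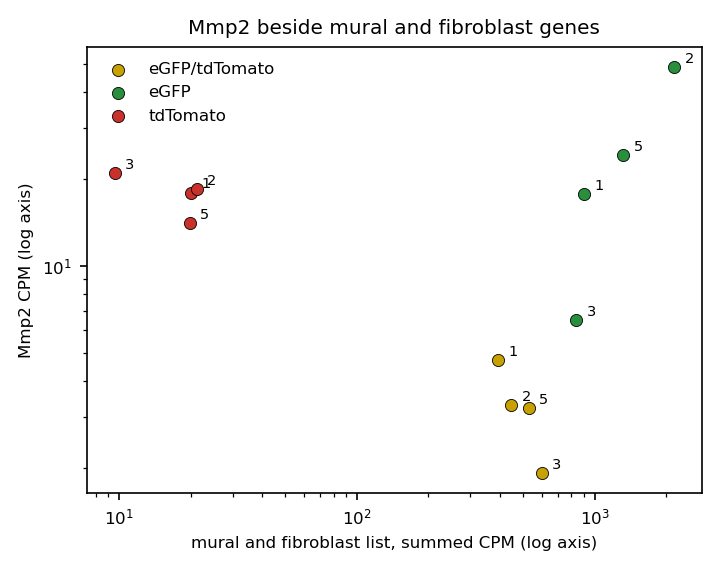
Mmp2 (CPM, log axis) against the summed CPM of 14 mural and fibroblast genes (log axis) in each of 12 libraries, numbered as in the labels. The eGFP libraries run from 835 to 2161 CPM on the list and from 6.51 to 48.7 CPM of Mmp2, while the tdTomato libraries hold at most 21.2 CPM of the list beside 14.1 to 20.97 CPM of Mmp2.

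Timp3 (ENSMUSG00000020044, GRCm38 chr10:86300372-86349506, plus strand) encodes the inhibitor that stays bound to the matrix and also blocks ADAM17 and aggrecan-cutting ADAMTS enzymes. It was at 613, 530, 620 and 517 CPM in eGFP/tdTomato libraries 1, 2, 3 and 5, at 164, 297, 357 and 279 CPM in eGFP libraries, and at 37.7, 60.6, 44.6 and 24.9 CPM in tdTomato libraries. The fractions formed 3 separate steps with no overlap. In the fit, the log2 fold change of Timp3 was 1.05 ± 0.26 (SE) for eGFP/tdTomato against eGFP, a 2.08-fold difference, 3.76 ± 0.29 for eGFP/tdTomato against tdTomato and 2.71 ± 0.28 for eGFP against tdTomato. The first passed the call threshold in the fit of all libraries but in only 3 of 12 fits that left out a library, those without eGFP 3, tdTomato 2 or tdTomato 5, with log2 fold changes of 0.82 (without eGFP library 1) to 1.22. Timp3 lies within Syn3, a gene on the opposite strand that shares 21.3% of its exon bases and averaged 7.58 CPM in eGFP/tdTomato, 8.67 CPM in eGFP and 6.59 CPM in tdTomato libraries.

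Timp4 (ENSMUSG00000030317, GRCm38 chr6:115241892-115252205, minus strand) encodes the inhibitor with the highest level per kilobase here. It was at 789, 572, 791 and 764 CPM in eGFP/tdTomato libraries 1, 2, 3 and 5, at 261, 469, 480 and 346 CPM in eGFP libraries, and at 180, 192, 179 and 125 CPM in tdTomato libraries. Again the fractions did not overlap. In the same fit, the log2 fold change of Timp4 was 0.91 ± 0.22 (SE) for eGFP/tdTomato against eGFP, a 1.87-fold difference, 2.11 ± 0.23 for eGFP/tdTomato against tdTomato and 1.20 ± 0.22 for eGFP against tdTomato. The first passed the call threshold in only 3 of 12 fits that left out a library, those without eGFP/tdTomato 2, eGFP 3 or tdTomato 5, at 0.70 (without eGFP library 1) to 1.04, and not in a fit of only these fractions. Syn2, whose exons share 1.53% of those of Timp4 on the opposite strand, averaged 37.9 CPM in eGFP/tdTomato, 28.5 CPM in eGFP and 20.4 CPM in tdTomato libraries.

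Timp3 and Timp4 differed in how far they followed the astrocyte genes. The tdTomato mean was 23.2% of the eGFP/tdTomato mean for Timp4 and 7.36% for Timp3, beside 1.24% for the pan-astrocyte genes, S100b included. Per 1000 CPM of those genes, Timp4 stood at 11.8 to 16.8 CPM in eGFP/tdTomato libraries, 7.69 to 10.8 CPM in eGFP libraries and 248 to 319 CPM in tdTomato libraries. The same ratio for Timp3 was 10.9 to 13.0 CPM in eGFP/tdTomato libraries, 4.84 to 7.14 CPM in eGFP libraries and 49.4 to 101 CPM in tdTomato libraries. On this ratio too, eGFP/tdTomato libraries lay above eGFP libraries for both inhibitors with no overlap, and tdTomato libraries lay above both.

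Timp2 (ENSMUSG00000017466, GRCm38 chr11:118301069-118355740, minus strand) encodes the inhibitor that bridges MMP14 and MMP2. It was at 43.4, 33.0, 47.8 and 69.0 CPM in eGFP/tdTomato libraries 1, 2, 3 and 5, at 47.4, 68.1, 75.9 and 73.6 CPM in eGFP libraries, and at 142, 73.6, 96.4 and 72.5 CPM in tdTomato libraries. The eGFP/tdTomato libraries lay below all tdTomato libraries, and eGFP overlapped both. For Timp2 the log2 fold change was -0.99 ± 0.26 (SE) for eGFP/tdTomato against tdTomato, -0.54 ± 0.26 for eGFP against tdTomato and -0.46 ± 0.26 for eGFP/tdTomato against eGFP. Without tdTomato library 1, its highest, the first was -0.75 and was no longer called.

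Reck (ENSMUSG00000028476, GRCm38 chr4:43875530-43944806, plus strand) encodes the surface inhibitor of MMP2, MMP9 and MMP14, which in mouse brain endothelium also serves as a receptor part for Wnt7 signals. It was at 11.6, 11.6, 11.2 and 13.1 CPM in eGFP/tdTomato libraries 1, 2, 3 and 5, at 11.1, 19.0, 13.4 and 12.5 CPM in eGFP libraries, and at 12.2, 5.81, 9.41 and 7.34 CPM in tdTomato libraries. All fractions overlapped, tdTomato with the others only through its library 1. The log2 fold change of Reck was 0.69 ± 0.25 (SE) for eGFP against tdTomato, 0.45 ± 0.25 for eGFP/tdTomato against tdTomato and -0.24 ± 0.25 for eGFP/tdTomato against eGFP. The first passed the call threshold in the fit of all libraries and lost it in 14 of 21 alternatives, 11 of them fits that left out a library, with values of 0.46 to 0.89.

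Of the 10 genes, 2 were called higher (Timp3 and Timp4) and 1 lower (Mmp2) in eGFP/tdTomato against eGFP, where 0.814% of the 29361 genes tested were called higher and 1.67% lower. In eGFP/tdTomato against tdTomato, 3 were called higher and 4 lower, where 16.8% of all genes were called higher and 12.4% lower. In eGFP against tdTomato, 4 were called higher and 2 lower, beside 20.4% and 14.9% of all genes. The median log2 fold change of the 10 was 0.03, 0.35 and 0.57 in these comparisons, beside -0.02, 0.70 and 0.79 over all genes tested. Since the genes were chosen on these contrasts, nothing is read from these counts, and the comparisons with tdTomato share its 4 libraries. The libraries of both fractions did not overlap for 3 genes in the first comparison, 6 in the second and 5 in the third. Over all genes tested, the share without overlap was 3.75% higher and 4.18% lower in the first, 20.6% and 14.8% in the second and 19.6% and 14.3% in the third.

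**Figure D3:**
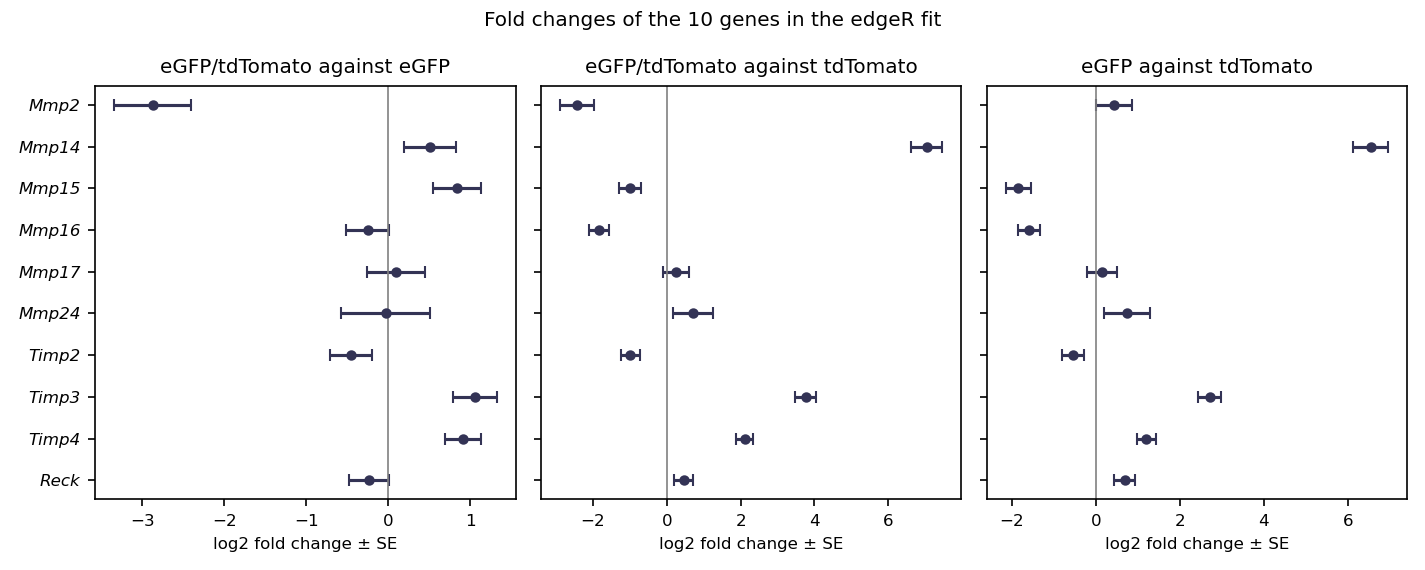
Log2 fold change ± SE of each gene from the edgeR fit (x axis, log2 units) in the 3 comparisons, with genes in rows. Mmp14 reaches 7.04 and 6.54 against tdTomato but 0.51 between the fractions with the astrocyte reporter, and Mmp2 is lower in eGFP/tdTomato than in both other fractions.

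Levels of different genes were compared per kilobase of exon. In eGFP/tdTomato libraries the order of the means was Timp4 at 124 ± 17.9, Timp3 at 69.95 ± 6.64, Mmp14 at 38.3 ± 11.1, Timp2 at 12.4 ± 3.89, Mmp15 at 5.30 ± 2.19, Mmp16 at 3.44 ± 0.79, Reck at 2.49 ± 0.18, Mmp2 at 0.98 ± 0.34, Mmp17 at 0.66 ± 0.17 and Mmp24 at 0.36 ± 0.12 CPM per kilobase (SD, n = 4). In eGFP libraries the same first genes led, at 66.0 ± 17.8 for Timp4, 33.7 ± 9.92 for Timp3 and 27.0 ± 6.79 for Mmp14. Mmp2, at 7.20 ± 5.30 CPM per kilobase, came next after Timp2 at 17.0 ± 3.34. Mmp2 ran there from 1.93 to 14.5 CPM per kilobase, and Mmp16 at 4.09 ± 0.95 and Mmp15 at 2.97 ± 0.87 lay within its spread. In tdTomato libraries Timp4 at 28.6 ± 5.06 and Timp2 at 24.7 ± 8.32 led within each other's spread, followed by Mmp16 at 12.3 ± 4.28 and Mmp15 at 10.6 ± 2.50, also within theirs. There Mmp14 came next to last, at 0.29 ± 0.15 CPM per kilobase, within the spread of Mmp24 at 0.22 ± 0.08.

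The makeup of the protease RNA differed between fractions. The 6 protease genes together stood at 37.0, 41.6, 55.2 and 62.5 CPM per kilobase in eGFP/tdTomato libraries, at 30.9, 52.0, 44.7 and 41.5 in eGFP libraries and at 34.7, 31.7, 30.3 and 20.4 in tdTomato libraries. Mmp14 made up 73.9 to 83.3% of that sum in eGFP/tdTomato libraries, 54.6 to 75.7% in eGFP libraries and 0.366 to 2.25% in tdTomato libraries. In tdTomato libraries Mmp16 made up 33.1 to 50.1% and Mmp15 29.8 to 43.7% of it, against 3.95 to 10.3% and 7.69 to 14.4% in eGFP/tdTomato libraries.

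The 3 TIMP genes together stood at 220, 171, 223 and 211 CPM per kilobase in eGFP/tdTomato libraries, at 76.5, 134, 145 and 112 in eGFP libraries and at 71.5, 58.8, 60.6 and 42.9 in tdTomato libraries. Timp2 made up 4.96 to 8.41% of that sum in eGFP/tdTomato libraries, 13.1 to 16.9% in eGFP libraries and 32.1 to 50.9% in tdTomato libraries. The ratio of TIMP to protease RNA was 5.96, 4.10, 4.03 and 3.37 in eGFP/tdTomato libraries, 2.48, 2.57, 3.24 and 2.69 in eGFP libraries and 2.06, 1.86, 2.00 and 2.11 in tdTomato libraries. The 3 ranges did not overlap for these genes, which were chosen by their levels, but the lowest eGFP/tdTomato value, 3.37, was close to the highest eGFP value, 3.24. Timp1 was left out of the sum. It stood at 8.41 to 11.3 CPM per kilobase in eGFP/tdTomato libraries and 7.69 to 14.9 in eGFP libraries. Timp1 was at 11.3 in eGFP/tdTomato library 5, which had the lowest ratio there, and at 14.9 in eGFP library 3, which had the highest. With Timp1 in the sum, the first ratio lies just below the second, so the eGFP/tdTomato and eGFP ranges do not stay apart. The ratio of Timp2 to Mmp14 was 0.275 to 0.399 in eGFP/tdTomato libraries, 0.576 to 0.691 in eGFP libraries and 40.6 to 163 in tdTomato libraries.

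**Figure D4:**
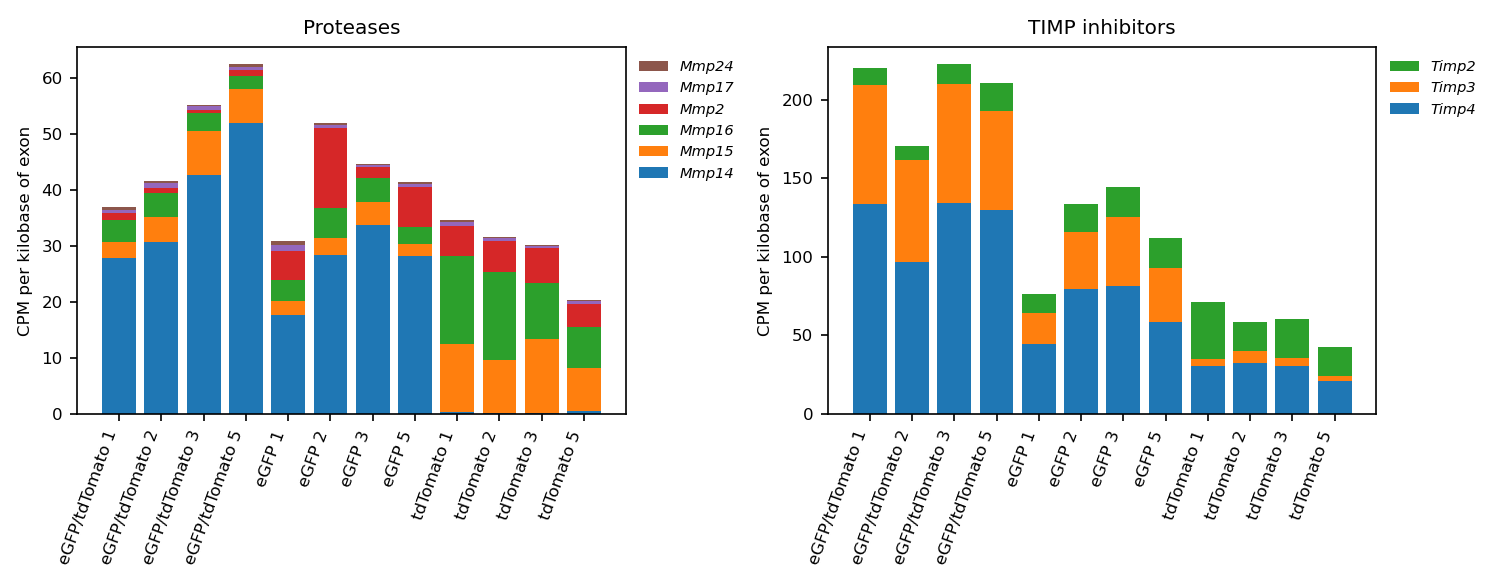
Summed level of the 6 protease genes (left) and the 3 TIMP genes (right), in CPM per kilobase of exon, for each of 12 libraries, with the share of each gene as a coloured segment. Mmp14 fills 54.6 to 83.3% of the protease bars of libraries with the astrocyte reporter and at most 2.25% of the tdTomato bars, and Timp2 fills 32.1 to 50.9% of the tdTomato inhibitor bars.

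Promoter sequence is given for Mmp14, Timp3 and Timp4, the members called higher in eGFP/tdTomato than in tdTomato cells, and for Mmp15, called lower there. RefSeq promoter entries (GRCm38.p6) matched 7 of the 10 members. Each line is the 250 bases before the start in those RefSeq entries, read 5′ to 3′ on the gene's strand. For Timp3 and Mmp15 that start lies downstream of the gene start given above, so the end of each line falls inside the gene as placed there. The marked GC box of Timp3 lies in that end. Capitals mark any match, on either strand, of the GC box GGGCGG, the TATA box TATAAA, the AP-1 site TGANTCA, the E-box CAGCTG or the SOX core ACAAT, which 32.7, 12.4, 6.75, 13.0 and 27.7% of all 32851 promoters of this length held.
Mmp14, chr14:54431348-54431597, plus strand: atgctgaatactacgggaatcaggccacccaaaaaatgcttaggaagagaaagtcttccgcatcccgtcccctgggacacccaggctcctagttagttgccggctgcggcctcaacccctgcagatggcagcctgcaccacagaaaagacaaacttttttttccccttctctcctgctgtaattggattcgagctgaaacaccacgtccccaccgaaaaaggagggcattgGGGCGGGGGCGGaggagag
Timp3, chr10:86300162-86300411, plus strand: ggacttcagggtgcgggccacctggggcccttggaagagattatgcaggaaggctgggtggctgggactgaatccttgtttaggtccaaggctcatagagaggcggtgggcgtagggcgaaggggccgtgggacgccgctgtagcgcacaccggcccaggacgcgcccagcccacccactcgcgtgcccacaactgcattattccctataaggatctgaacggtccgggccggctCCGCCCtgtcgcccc
Timp4, chr6:115252206-115252455, minus strand: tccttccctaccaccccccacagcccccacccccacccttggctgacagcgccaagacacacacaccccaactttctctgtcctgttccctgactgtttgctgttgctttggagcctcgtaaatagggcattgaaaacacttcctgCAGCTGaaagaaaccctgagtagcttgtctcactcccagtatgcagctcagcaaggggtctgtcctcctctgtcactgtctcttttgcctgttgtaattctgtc
Mmp15, chr8:95352046-95352295, plus strand: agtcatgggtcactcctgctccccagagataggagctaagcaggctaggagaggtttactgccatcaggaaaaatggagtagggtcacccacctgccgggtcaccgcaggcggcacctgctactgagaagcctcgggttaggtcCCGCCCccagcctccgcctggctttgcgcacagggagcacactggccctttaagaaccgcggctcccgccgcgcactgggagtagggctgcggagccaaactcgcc
Mmp14 held 2 GC boxes that follow each other directly, Timp3 and Mmp15 held 1 each, and Timp4 held none and 1 E-box. Timp4 also had 2 CpG pairs, against 10 in Mmp14, 18 in Timp3 and 14 in Mmp15, and a GC content of 53.6%, near the median of 52.4% over all promoters. The GC content was 55.2% for Mmp14, 65.6% for Timp3 and 63.6% for Mmp15.

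Among 11333 genes, those whose pattern over the 12 libraries was most like each member's were listed by Pearson's r of log2(CPM + 1). The libraries fall into 3 fractions and share their depth and composition, so r mainly ranks genes by the same order of fractions. Mmp14 was most like Tst (r = 0.997) and Tmem252 (r = 0.996), Timp3 was most like Lgalsl (r = 0.998) and Acss1 (r = 0.997), and Timp4 was most like Eps8 (r = 0.990) and Ptprg (r = 0.988). Mmp2 was most like Rcn3 (r = 0.968), which averaged 6.88 CPM in eGFP/tdTomato, 21.9 CPM in eGFP and 23.2 CPM in tdTomato libraries. Mmp15 was most like Pomgnt1 (r = 0.977), Mmp16 like Nosip (r = 0.973), Timp2 like Atxn7l3b (r = 0.924), Reck like Bbs2 (r = 0.918), Mmp24 like Dnajc25 (r = 0.913) and Mmp17 like Trank1 (r = 0.800).

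The remaining genes of both families and their pathway were counted from 6 lists, tested over all genes in the same edgeR quasi-likelihood fit with Benjamini-Hochberg adjustment. Of all genes tested, 16.8% were called higher and 12.4% lower in eGFP/tdTomato against tdTomato. In eGFP against tdTomato the shares were 20.4% and 14.9%. The lists were chosen with earlier results known, so their counts are a description and no trait of a family is read from them. Of 16 other MMP and TIMP genes tested, none was called in eGFP/tdTomato against eGFP, with none at an unadjusted p under 0.05 and none by DESeq2 or limma-voom either. Against tdTomato, 5 were higher and none lower in eGFP/tdTomato, and 6 were higher and none lower in eGFP (3 higher by limma-voom). Timp1, the inhibitor best known as induced in reactive tissue, averaged 9.09 ± 1.14 CPM in eGFP/tdTomato and 10.7 ± 2.72 CPM in eGFP libraries, against 0.20 ± 0.16 CPM in tdTomato libraries (SD, n = 4). Its log2 fold change was 5.56 ± 0.46 (SE, adjusted p = 1.48e-07) for eGFP/tdTomato and 5.79 ± 0.46 (adjusted p = 9.36e-08) for eGFP. Mmp11 and Mmp19 were 7.57-fold and 4.51-fold higher in eGFP/tdTomato than in tdTomato, and 22.3% of the exon bases of Mmp19 are shared with Tmem198b on the opposite strand.

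ADAM proteases are membrane sheddases of a sister family. None of 11 was called in eGFP/tdTomato against eGFP (2 at an unadjusted p under 0.05, none by DESeq2 or limma-voom), 4 were lower and none higher in eGFP/tdTomato against tdTomato, and 5 were lower and 1 higher in eGFP against tdTomato. Adam19 averaged 2.71 ± 1.05 CPM in eGFP/tdTomato and 4.95 ± 2.93 CPM in eGFP libraries, against 55.7 ± 18.8 CPM in tdTomato libraries, and Adam12, Adam22 and Adam23 were also lower in both. Adam22 and Adam23 encode members that lack protease activity and serve as LGI receptors.

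ADAMTS proteases are secreted enzymes, some of which cut proteoglycans. Of 19, 10 were higher and 1 lower in eGFP/tdTomato against tdTomato, and 13 were higher and 1 lower in eGFP against tdTomato. The lower gene in both was Adamts4, an aggrecanase, at 20.9 ± 10.8 CPM in eGFP/tdTomato and 7.88 ± 1.15 CPM in eGFP libraries, against 1044 ± 385 CPM in tdTomato libraries. Its log2 fold change was -5.64 ± 0.42 (SE, edgeR adjusted p = 4.67e-08) for eGFP/tdTomato and -7.05 ± 0.45 (adjusted p = 9.13e-09) for eGFP. Adamts1, Adamts9 and Adamts12 were 13.1-fold, 20.2-fold and 34.8-fold higher in eGFP/tdTomato than in tdTomato.

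By edgeR, 3 genes of the 6 lists were called between eGFP/tdTomato and eGFP, and they are named after their values were seen. In the ADAMTS and substrate lists, limma-voom called the same genes, and DESeq2 also called Adamts4, Adamts6, Cspg4 and Lamb1. DESeq2 had 1 gene higher in eGFP/tdTomato in each of these lists. By edgeR, Adamts4 was 2.65-fold higher there and was not called (adjusted p = 0.0531). Adamts20 was at 10.9 ± 1.86 CPM in eGFP/tdTomato and 27.1 ± 5.81 CPM in eGFP libraries (log2 fold change -1.31, edgeR adjusted p = 0.00559). Adamts5 was at 16.1 ± 3.54 CPM in eGFP/tdTomato and 28.7 ± 1.60 CPM in eGFP libraries (log2 fold change -0.83, edgeR adjusted p = 0.0489), a call that was lost in 11 of 12 fits that left out a library. Col4a1, a basement membrane collagen chain, was at 7.90 ± 1.99 CPM in eGFP/tdTomato and 24.2 ± 2.68 CPM in eGFP libraries (log2 fold change -1.62, edgeR adjusted p = 0.000626), beside the mural and fibroblast sums of 392 to 599 CPM in eGFP/tdTomato and 835 to 2161 CPM in eGFP libraries, whose part in it was not tested.

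Among 13 proprotein convertases and plasminogen genes, which switch proteases on or off, 4 were higher and 4 lower in each comparison with tdTomato, and none was called between eGFP/tdTomato and eGFP (3 at an unadjusted p under 0.05, and by DESeq2 1, Plaur, lower). Furin, the convertase that removes the propeptide of membrane-type MMPs, averaged 23.0 ± 4.30 CPM in eGFP/tdTomato and 22.2 ± 5.06 CPM in eGFP libraries, against 9.37 ± 1.69 CPM in tdTomato libraries (edgeR adjusted p = 0.000301 and 0.000387). Pcsk6, a second convertase, was lower in both, at 2.72 ± 0.99 and 2.88 ± 1.45 CPM, against 20.9 ± 4.44 CPM in tdTomato libraries. Serpine2, the inhibitor of thrombin and plasminogen activators known as protease nexin, was at 4445 ± 721 CPM in eGFP/tdTomato and 2826 ± 750 CPM in eGFP libraries, against 547 ± 220 CPM in tdTomato libraries.

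Of 16 binding partners, uptake receptors and inducers, 9 were higher and 5 lower in eGFP/tdTomato against tdTomato, and 10 were higher and 5 lower in eGFP against tdTomato. None was called between eGFP/tdTomato and eGFP by edgeR (6 at an unadjusted p under 0.05), while 3 were lower by DESeq2 (Cav1, Cd44 and Cldn5) and 1 by limma-voom (Cldn5). Cd44, the hyaluronan receptor that docks MMP14 and is cut by it, averaged 103 ± 15.3 CPM in eGFP/tdTomato and 146 ± 21.6 CPM in eGFP libraries, against 2.40 ± 0.52 CPM in tdTomato libraries. Lrp1, the receptor that clears MMP and TIMP complexes, averaged 645 ± 243 CPM in eGFP/tdTomato and 428 ± 300 CPM in eGFP libraries, against 128 ± 30.1 CPM in tdTomato libraries.

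Of 20 membrane and matrix substrates, 14 were higher and 2 lower in eGFP/tdTomato against tdTomato, and 14 were higher and 1 lower in eGFP against tdTomato. Tnc, the matrix glycoprotein tenascin-C, averaged 778 ± 193 CPM in eGFP/tdTomato and 646 ± 195 CPM in eGFP libraries, against 2.96 ± 1.35 CPM in tdTomato libraries. Sdc4, a surface proteoglycan, was 251-fold and 227-fold higher in the same comparisons. The members of this list that were lower were Cspg4, the NG2 proteoglycan of oligodendrocyte progenitors, in both comparisons, and Vcan, the proteoglycan versican, in eGFP/tdTomato. Cspg4 averaged 12.7 ± 0.59 CPM in eGFP/tdTomato and 7.00 ± 1.83 CPM in eGFP libraries, against 61.8 ± 15.9 CPM in tdTomato libraries.

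**Figure D5:**
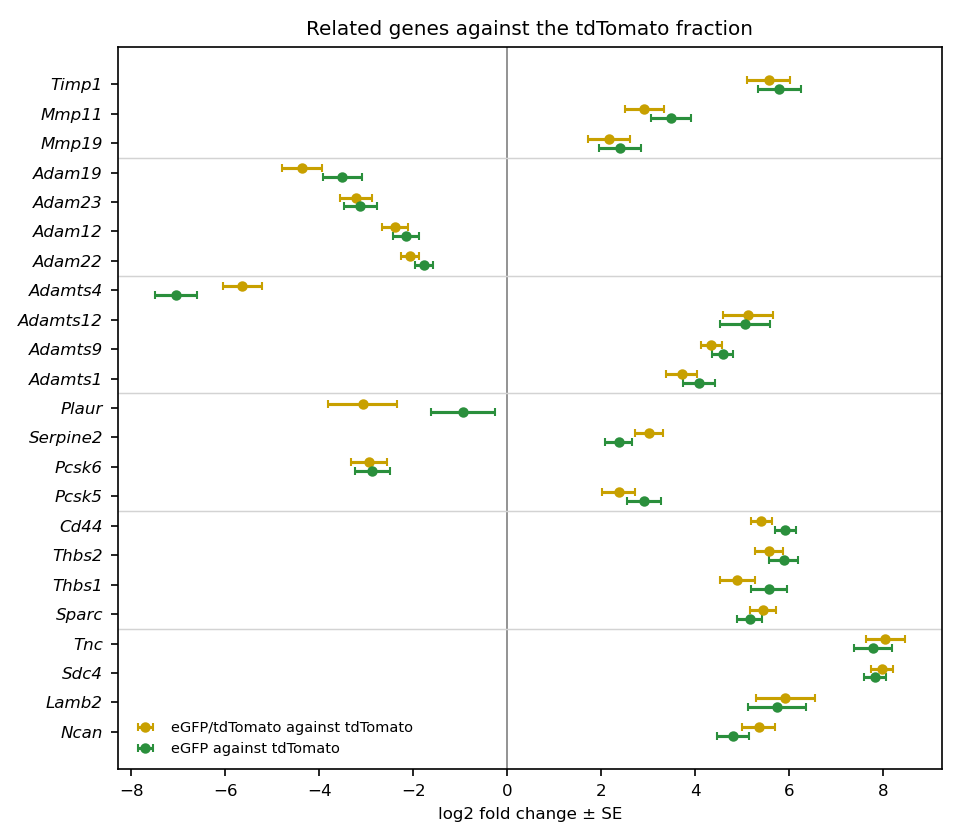
Log2 fold change ± SE (x axis, log2 units) against the tdTomato fraction for 23 related genes, with 1 point for eGFP/tdTomato and 1 for eGFP in each row and grey lines between the 6 lists. Adamts4 lies furthest to the left, at -5.64 and -7.05, and Tnc and Sdc4 furthest to the right, at 7.78 to 8.05.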

How the data were processed

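RNA of 3 sorted cell fractions was measured in 4 libraries each. The authors deposited raw counts of reads per Ensembl gene, 1 file per library, and per the submitters' processing notes they used STAR, HTSeq and GRCm38 (mm10); versions, strand mode and annotation release are not given in the sources used here. Each file held 53465 genes and 5 lines that name no gene, which were left out of library sizes; the largest of these, reads outside genes, held 21.2 to 57.1% of reads. GENCODE M21 held 53360 of the IDs. Mitochondrial genes were listed at 0 counts, and no 2 libraries were identical.

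Counts were fitted with edgeR 4.0.16 in R 4.3.3 (quasi-likelihood, TMM, filterByExpr by fraction) with all 12 libraries and fraction as the only factor. The SE of a log2 fold change was derived from that fit, as its absolute value divided by the square root of the quasi-likelihood F statistic. P-values were adjusted by Benjamini-Hochberg over 29361 genes; a gene was called when its adjusted p was below 0.05. The code of the fit was first run on simulated counts in which few genes changed, in the eGFP/tdTomato fraction only. The many genes called against tdTomato are unlike that setting, so the run checks the code and not the calls made here. The labels call the libraries biological replicates but do not say whether they came from separate mice, so p-values measure the spread between libraries. Members and lists were chosen with earlier results of these data known. From each of 6 related lists, up to 4 genes were named, those with the largest called fold change whose higher fraction averaged 5 CPM or more; Furin, Lrp1, Cspg4, Vcan, Adamts5, Adamts20 and Col4a1 were named after their values were seen. Alternatives were DESeq2 1.42.0, limma 3.58.1 voom, other size factors, other filters, a fit of only the fractions compared, a replicate block, a covariate for reads outside genes, and leaving out each library.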

Additional observations from a re-analysis of the deposited data

Results flagged for a closer look

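In groups of 4 libraries, the lowest or highest value was set against the range of the group, and 6 of 108 groups had a library far from the other 3, where chance gives about 1 in 20. Of these, 1 was among the 30 groups of the 10 genes described first: Timp4 was at 572 CPM in eGFP/tdTomato library 2, against 764 to 791 CPM in the others of that fraction. Among related genes, Serpine2 was at 5520 CPM in eGFP/tdTomato library 1, against 3979 to 4157 CPM, and Mmp19 was at 4.18 CPM in eGFP/tdTomato library 3, against 5.22 to 5.35 CPM. In eGFP library 3, Adamts9 was at 102 CPM, against 65.0 to 71.0 CPM, and Adamts1 was at 265 CPM, against 133 to 155 CPM. Plaur was at 10.9 CPM in tdTomato library 3, against 6.64 to 6.94 CPM.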

How the results depend on the processing

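Each fold change was recomputed under 9 other settings and 12 fits that each left out a library. Mmp14, Mmp16, Timp3 and Timp4 kept direction and call against tdTomato in all of them, Mmp15 did so in eGFP against tdTomato, and Mmp2 did so in eGFP/tdTomato against both fractions. The count of the 10 genes called higher in eGFP/tdTomato against eGFP was 2, but 1 in the fit of only these fractions and 0 to 2 with a library left out. The count called lower in eGFP/tdTomato against tdTomato was 4, and 2 to 4 with a library left out (2 without tdTomato library 1). Timp2 was called lower in eGFP against tdTomato by DESeq2, with at least 1 CPM in 4 libraries, with protein-coding genes only and without eGFP/tdTomato library 3. Of the 23 related genes named by rule and Adamts5, Adamts20 and Col4a1, Adamts5 lost a call, without a filter on low counts and in 11 fits that left out a library, and the others kept theirs. Other related genes were recomputed with DESeq2 and limma-voom only, and limma-voom called 3 rather than 6 other MMP and TIMP genes higher in eGFP against tdTomato, without Mmp3, Mmp9 and Mmp28.

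Only fold changes that were not called changed sign. For eGFP/tdTomato against eGFP, Mmp17 was at -0.00597 with at least 1 CPM, -0.0166 in the fit of only these fractions, -0.00351 with protein-coding genes and -0.0827 to 0.37 with a library left out, and Mmp24 was at 0.19 with voom, 0.32 with the covariate and -0.28 to 0.34 with a library left out. For eGFP/tdTomato against tdTomato, Mmp17 was at -0.11 with the covariate, -0.00205 with protein-coding genes and -0.0470 to 0.44 with a library left out. For eGFP against tdTomato, Mmp17 was at -0.44 and Mmp24 at -0.10 with the covariate, and Mmp17 was at -0.38 to 0.33 and Mmp2 at -0.17 to 0.75 with a library left out. The cause was not tested.

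Over all genes, 239 were called higher in eGFP/tdTomato against eGFP, but 547 with DESeq2, 566 with the replicate block, 479 with the covariate and 103 (without eGFP/tdTomato library 3) to 475 (without eGFP library 3) with a library left out. The count called lower was 491, but 949 with DESeq2 and 323 to 656 with a library left out. In eGFP/tdTomato against tdTomato, 3628 were called lower, and 2888 to 5452 with a library left out (the most without eGFP library 1). The share of calls that were higher there was 57.6%, against 45.8% with at least 1 CPM in 4 libraries, 45.5% in the fit of only these fractions and 41.4% with protein-coding genes, and in eGFP against tdTomato it was 57.7%, against 44.5% with protein-coding genes. With DESeq2 size factors the median of all genes was 0.57 in the first of these, where it was 0.70 with TMM.

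The labels call the libraries biological replicates and give each a set number, but do not say what libraries of a set share. Same-numbered libraries had deviations that correlated at -0.21 to 0.62, and at 0.48 to 0.62 in set 3. Negative values were seen only in set 2 of eGFP/tdTomato against eGFP and set 1 of eGFP against tdTomato (-0.0685). These values do not settle whether libraries are paired by set, and the replicate block (Mmp24 at 0.0664 in eGFP/tdTomato against eGFP) was kept as an alternative. In that comparison the block called 566 genes higher and 673 lower, against 239 and 491 without it. Depth limits Mmp24, at 18 to 67 counts.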
